A study of Mus musculus with 2 samples.

Results

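Open promoters of long noncoding RNA (lncRNA) genes were described in mouse megakaryocyte progenitors, the blood precursors of the platelet-forming megakaryocytes. They are the regions of the authors' conservative peak list whose strongest summit lay within 1 kb of an annotated start of a lincRNA, antisense or processed_transcript gene of GENCODE M21 and more than 1 kb from any protein-coding start. This gave 1675 regions of 80938, or 2.07% (Wilson 95% interval 1.97% to 2.17%). They were compared with 15389 regions within 1 kb of a protein-coding start, called protein-coding promoters here, and with 63874 regions near neither kind of start. Beyond a place on the list, the rule used position only, and no replicate or sequence property. Signal entered only in the choice of the strongest summit of a region.

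Accessible chromatin was mapped with ATAC-seq, an assay that uses a transposase to cut and tag open DNA. The primary cells came from adult C57BL/6J mice, all male and 5 to 6 weeks old, with no treatment or altered allele named in the labels. There was 1 group with 2 libraries of 50000 cells each, which the labels number as biological replicates with separate biosamples and the same donor record, so the spread between them may be partly technical. Signal is the value that the authors' peak caller gave a summit, and a region carries that of its strongest summit. The depth of each library is unknown, and with 1 group of 2 libraries no comparison below has a test: the smallest p that an exact paired permutation over 2 libraries allows is 0.5. Intervals are Wilson 95% intervals over regions or genes, which are not replicates, and cover counting error only.

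Long noncoding RNAs are transcripts that are not known to encode a protein. Some act in the nucleus, as in X-chromosome inactivation or the silencing of imprinted genes, some are processed to release small nucleolar RNAs or microRNAs, and for most no role is known. Promoters of mammalian genes fall into a CpG-rich kind, typical of widely expressed genes, and a CpG-poor kind that is more often used in particular cell types.

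Of these regions 8 are shown by sequence as examples. They are the 2 with the highest signal, the 2 strongest whose nearest protein-coding gene is a blood regulator, the 2 strongest at genes that hold an annotated microRNA gene, and the 2 strongest at genes that host small nucleolar RNAs. Each is the 151 bp around the strongest summit in the RefSeq GRCm38.p6 (mm10) assembly, written on the strand of the lncRNA gene. Capitals mark matches to any of the 13 motifs searched, which are spelled out with the motif results, on either strand.
Gm13274, chr4:88757627-88757777, minus strand: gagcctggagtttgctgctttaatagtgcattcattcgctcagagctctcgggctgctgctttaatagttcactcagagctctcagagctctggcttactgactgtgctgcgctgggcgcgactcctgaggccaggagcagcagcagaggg
BC002059, chr17:16951397-16951547, plus strand: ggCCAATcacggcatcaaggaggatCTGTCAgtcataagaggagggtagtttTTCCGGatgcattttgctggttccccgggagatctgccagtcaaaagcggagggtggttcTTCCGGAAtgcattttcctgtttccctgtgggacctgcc
Gm43635, chr6:127254051-127254201, minus strand: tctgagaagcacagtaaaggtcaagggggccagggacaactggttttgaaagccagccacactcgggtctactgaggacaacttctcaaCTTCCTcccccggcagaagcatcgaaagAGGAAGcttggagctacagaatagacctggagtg
Gm26692, chr5:107687969-107688119, minus strand: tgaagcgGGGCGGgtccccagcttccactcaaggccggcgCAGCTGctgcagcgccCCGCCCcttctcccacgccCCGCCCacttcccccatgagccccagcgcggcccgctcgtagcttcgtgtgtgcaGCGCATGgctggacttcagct
Mir670hg, chr2:94178901-94179051, minus strand: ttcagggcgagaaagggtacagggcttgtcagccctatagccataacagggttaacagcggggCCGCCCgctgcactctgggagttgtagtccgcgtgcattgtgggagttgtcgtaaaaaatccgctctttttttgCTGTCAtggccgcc
A930003A15Rik, chr16:19884254-19884404, minus strand: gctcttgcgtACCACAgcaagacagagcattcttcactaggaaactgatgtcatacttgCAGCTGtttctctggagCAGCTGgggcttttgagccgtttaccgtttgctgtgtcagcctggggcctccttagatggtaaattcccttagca
Snhg6, chr1:9944095-9944245, minus strand: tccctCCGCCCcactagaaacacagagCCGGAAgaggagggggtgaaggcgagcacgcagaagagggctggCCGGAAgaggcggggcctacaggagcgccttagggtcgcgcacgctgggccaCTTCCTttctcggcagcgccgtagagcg
Snhg17, chr2:158361478-158361628, minus strand: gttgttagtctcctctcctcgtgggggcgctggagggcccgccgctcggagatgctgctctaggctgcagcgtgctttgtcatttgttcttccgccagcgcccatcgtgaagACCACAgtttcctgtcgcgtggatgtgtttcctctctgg
The Gm13274 window had no match to any of the motifs, although it had the highest signal. BC002059 held 5 matches, of which 3 were to ETS (CCGGAA, on both strands of 1 stretch and once elsewhere), with 1 each to NF-Y and MEIS. Gm26692 held 3 KLF/SP matches, 14 CpG and 71.5% GC, whereas Gm43635 had 3 CpG and a pair of AGGAAG matches. The Snhg6 window also had 14 CpG, and Snhg17 had 11 and 1 RUNX match.

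A code in the labels, CFU-M, was left uninterpreted. The label was checked on promoters of protein-coding marker genes over the whole list. A region lay within 1 kb of a start of 8 of 14 megakaryocyte genes, among them Itga2b, Gp9, Gp1ba, Pf4 and Gata1, but not of Vwf or Selp. Over all protein-coding genes the share was 60.1%, so the megakaryocyte genes did not stand above it. A region was also found at 5 of 6 granulocyte, 3 of 6 macrophage, 3 of 5 erythroid, 1 of 4 B-cell and 1 of 4 T-cell genes. Whether other cells contributed to the lncRNA promoters below was not tested.

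The nearest lncRNA start belonged to a lincRNA gene, which lies between protein-coding genes, in 979 regions. It belonged to an antisense gene, which overlaps a protein-coding gene on the opposite strand, in 476, and to a gene typed only as processed_transcript in 220. The regions were nearest to 1470 genes, of which 181 had 2 or more regions and 18 had 3 or more. 2310001H17Rik had the most, 5 regions with signals from 2.45 to 6.50. Ftx, D230017M19Rik, Trerf1 and Junos had 4 each. They lay on 20 of 21 chromosomes, with 32 on X and 0 on Y. Another 1261 regions near a lncRNA start also lay within 1 kb of a protein-coding start and were left out by the rule, so that of 2936 regions near a lncRNA start a protein-coding promoter could not be told apart in these.

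Seen by gene, 1461 of 8234 lncRNA genes with at least 1 start away from protein-coding starts had an open promoter, or 17.7% (16.9% to 18.6%). The share was 15.8% of lincRNA genes (872 of 5529), 19.5% of antisense genes (417 of 2137) and 30.3% of processed_transcript genes (172 of 568), and these 3 intervals did not overlap. For comparison, the share of protein-coding genes was 60.1%. It was counted over any region within 1 kb of any start, with no gene left out. For lncRNA genes, 1369 with all starts near protein-coding starts were left out. Protein-coding genes also had more annotated starts, 54361 for 21853 genes against 14285 for 9603. The part of these differences in the gap was not tested. In the lists of each library alone the lncRNA share was 14.6% in replicate 1 and 14.1% in replicate 2 (mean 14.3% ± 0.335, SD, n = 2), and the protein-coding share was 57.1% and 56.3%. In both libraries lncRNA genes stood below protein-coding genes, by a gap far larger than the difference between the libraries.

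Signal at lncRNA promoters was below that at protein-coding promoters and close to that of regions near neither kind of start. The median was 8.60 (quartiles 6.32 to 11.4), against 9.89 and 8.74, respectively. In replicate 1 alone the median was 8.61 at 1341 lncRNA promoters, 9.70 at protein-coding promoters and 8.92 near neither. In replicate 2 alone it was 9.02 at 1303 lncRNA promoters, 10.4 and 9.47. The order was the same in both libraries, but the gap between lncRNA promoters and regions near neither was no larger than about the difference between the libraries, whose scales are not stated to be matched. The gap to protein-coding promoters exceeded it. Among the settings tried, that order turned only where regions up to 5 kb from a protein-coding start counted as protein-coding promoters. The medians were then 8.47 and, at lncRNA promoters, 9.07. The order also turned among CpG-poor regions alone, defined below, which make up 1422 of the lncRNA promoters. There the median was 7.97 at protein-coding promoters and 8.57 at lncRNA promoters. Against regions near neither the order turned under other settings, as in the replicated list, with 6.26 at lncRNA promoters and 5.94 near neither. By type the medians were 8.92 for lincRNA, 8.76 for processed_transcript and 7.93 for antisense genes. Regions at lncRNA starts were 501 bp wide at the median, between the 773 bp of protein-coding promoters and the 418 bp of regions near neither. More than 1 summit was listed in 39.6% of them, against 63.0% and 25.1%.

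A region was also listed by both replicates' own thresholded lists, with at least 50% of either region covered, in 1137 of 1675 lncRNA promoters (67.9%, 65.6% to 70.1%). Over all regions this share was 63.9%, so the lncRNA promoters stood slightly above this background. It was 81.9% at protein-coding promoters and 59.5% near neither. A further 141 regions were listed by replicate 1 only, 113 by replicate 2 only, and 284 by neither alone. Among regions listed by both, the log2 ratio of replicate 2 to replicate 1 had a median of 0.08 and an SD of 0.17, and the Spearman correlation was 0.94 over 1137 regions, which share their library pair. The median ratio was 0.09 at protein-coding promoters and 0.08 near neither, so a small excess of replicate 2 was shared by all classes.

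**Figure D1:**
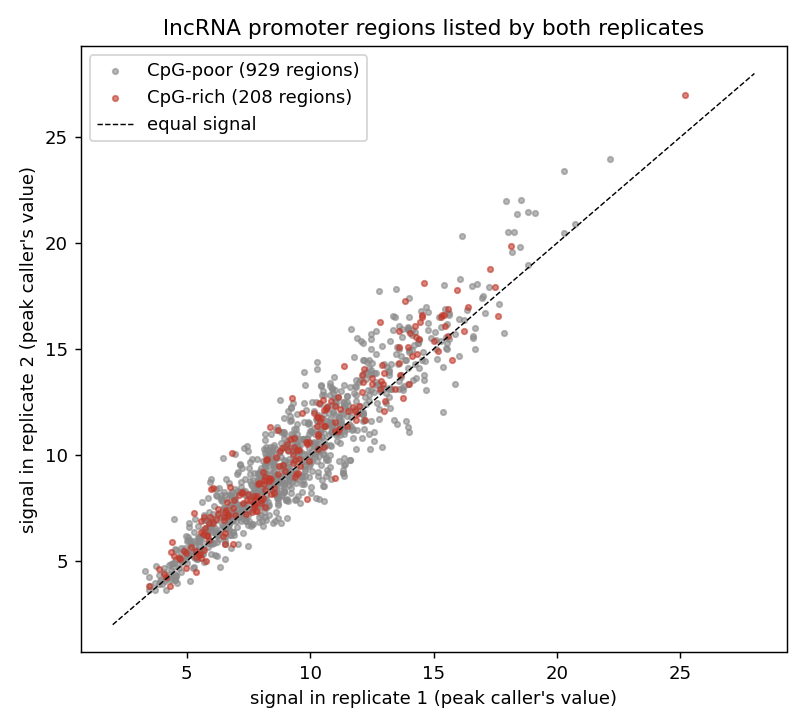
Signal of each lncRNA promoter region in replicate 1 (horizontal axis, peak caller's value) and replicate 2 (vertical axis, same unit), for the 1137 regions listed by both, CpG-rich in red and CpG-poor in grey. The points lie along the dashed line of equal signal, mostly a little above it, and 1 region, Gm13274 at 25.2 and 27.0, stands at the upper end.

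Listing by both libraries followed signal, which is partly built in because all these lists were thresholded. All regions were cut into 10 equal classes from weakest to strongest. In the weakest class 26.3% of the lncRNA promoters were listed by both, against 18.5% of all regions, and in class 4 it was 60.7% against 46.3%. In classes 8, 9 and 10 the shares were 94.0%, 98.4% and 98.7%, against 92.7%, 97.7% and 99.5%. At a given low or middle signal, lncRNA promoters were thus listed by both libraries at a higher share than all regions, and at the top the shares met.

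**Figure D2:**
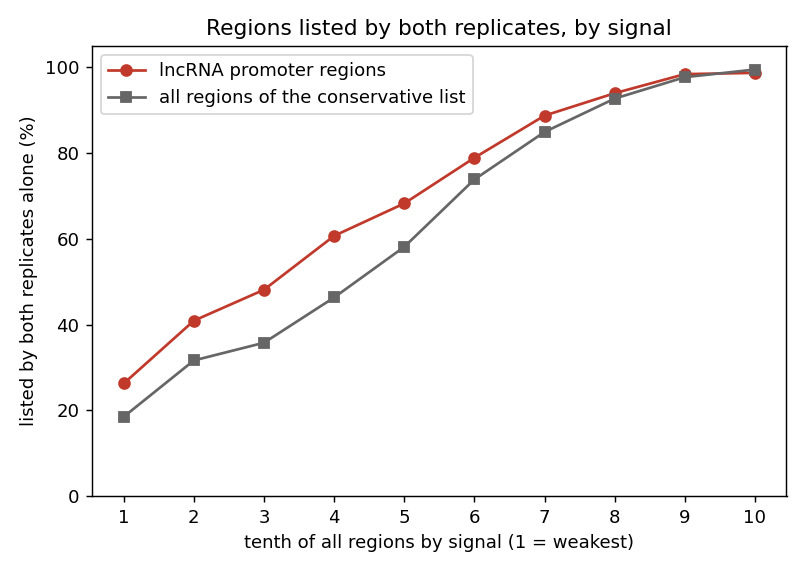
Share of regions listed by both replicates (vertical axis, %) in 10 equal classes of all regions ordered by signal (horizontal axis, 1 is the weakest), for lncRNA promoters (red) and all regions of the conservative list (grey). The red line lies above the grey line up to class 9, and the gap shrinks from 60.7% against 46.3% in class 4 to 98.4% against 97.7% in class 9.

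The summits lay near the annotated starts, less tightly than at protein-coding genes. The median distance from the start was 267 bp (quartiles 75 to 642), against 75 bp at protein-coding promoters. Protein-coding genes had 54361 annotated starts for 21853 genes, and lncRNA genes 14285 for 9603. Within 100 bp of the start lay 529 summits (31.6%, 29.4% to 33.8%), against 58.4%. At 601 to 1000 bp lay 449. The name lncRNA promoter rests on position, and whether regions farther off are promoters or only lie near a start was not tested. The summit was upstream of the start in 1045 regions (62.4%). Processed_transcript starts were nearest to their summits, at a median of 147 bp, and antisense starts farthest, at 316 bp.

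**Figure D3:**
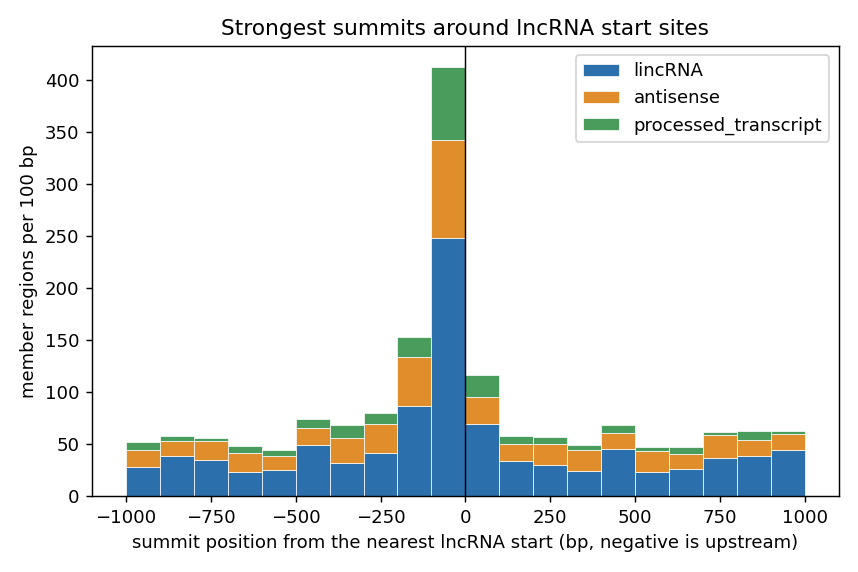
Number of lncRNA promoter regions (vertical axis, per 100 bp) by position of the strongest summit from the nearest lncRNA start (horizontal axis, bp, negative is upstream), stacked by gene type. The peak is in the 100 bp just upstream of the start, beside a flat floor that runs to both ends of the window.

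Regions close to the start had higher signal and CpG content than those farther off. Those within 100 bp had a median signal of 9.40, 78.1% were listed by both libraries and 23.6% were CpG-rich. At 101 to 300 bp the values were 8.89, 62.6% and 17.2%, and at 601 to 1000 bp they were 7.95, 62.6% and 5.12%. The share of CpG-rich regions was thus lower at each step away from the start. At the edge of the window, D630033O11Rik (signal 4.44) and Trerf1 (10.4) were taken in at 1000 bp, and regions nearest to Gm15201 (10.7) and AC124231.3 (6.59) were left out at 1001 bp. At the protein-coding limit, Gm10516 and Gm45606 were taken in at 1007 and 1009 bp from a protein-coding start, with signals of 7.09 and 4.26. Gm19261 and 4831440E17Rik were left out at 996 and 988 bp, with signals of 8.81 and 8.21.

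A region was called CpG-rich where the 501 bp around its summit had at least 50% GC and an observed-over-expected CpG ratio of at least 0.6. This held for 253 lncRNA promoters (15.1%, 13.5% to 16.9%), against 63.7% of protein-coding promoters and 1.98% of regions near neither. Over all regions it was 14.0%, near the lncRNA share, but made up of classes that differ widely. Processed_transcript genes had the highest share, 25.5%, against 14.1% of lincRNA and 12.4% of antisense genes. The CpG-rich lncRNA promoters were wider than the CpG-poor (773 against 468 bp), were listed by both libraries at 82.2% against 65.3%, and had summits nearer to the start (a median of 107 against 320 bp), while the median signal differed less (8.98 against 8.57). Within the CpG-rich class alone, the median signal was 10.9 at protein-coding promoters and 89.5% of them were listed by both libraries. Within the CpG-poor class, the share listed by both was 65.3% at lncRNA promoters, 68.5% at protein-coding promoters and 59.2% near neither, with median signals of 8.57, 7.97 and 8.74.

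Each summit was counted once, with lncRNA exons taken first, and it lay in one in 367 lncRNA promoters. Of the others, 940 (56.1% of all lncRNA promoters) lay outside any protein-coding gene, 300 in a protein-coding intron and 68 in a protein-coding exon. With those in lncRNA exons included, 456 (27.2%) lay inside a protein-coding gene body, against 53.3% of regions near neither. In a protein-coding exon lay 93 (5.55%), against 5.25%. The nearest protein-coding start was 26.7 kb away at the median (quartiles 8.40 to 63.8), against 21.9 kb for regions near neither. The 270 regions at 1 to 5 kb from a protein-coding start had a median signal of 6.24, below the 8.91, 8.98 and 9.49 at 5 to 20, 20 to 100 and over 100 kb. CpG-rich regions were 21.9% of the nearest group and 6.05% of the farthest. At least 50% of the bases around the summit were repeat-masked in 41 regions (2.45%), against 0.825% of protein-coding promoters and 4.89% of regions near neither.

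Motifs were matched in the 151 bp around the summit, on both strands, for 13 sequences. The letters were AGATAA or TGATAA for the GATA family, CCGGAA and AGGAAG for ETS factors, TGTGGT for RUNX, TGAGTCA for AP-1, GGGCGG for KLF/SP and CCAAT for NF-Y. They were CAGCTG for the E-box, TGACG for CRE, TATAAA for the box of that name, AAGATGG for YY1, GCGCATG for NRF1 and TGACAG for MEIS. The share of lncRNA promoters with a match lay between those of protein-coding promoters and of regions near neither for 10 of 13 motifs, the exceptions being AP-1, E-box and YY1. Intervals of lncRNA promoters and regions near neither overlapped for AP-1, E-box, NF-Y and MEIS, and those of lncRNA and protein-coding promoters for TATA. The order of those pairs is thus not settled. GATA, the motif of the factors that drive megakaryocyte and erythroid genes, was found in 14.1%, against 6.46% of protein-coding promoters and 21.1% of regions near neither, and 18.2% of all regions. RUNX was found in 16.8%, against 8.72%, 22.5% and 19.8% of the same groups. AP-1 was found in 7.40% (6.24% to 8.76%), above 2.66% of protein-coding promoters. It was found in 6.33% (6.15% to 6.52%) of regions near neither and 5.66% of all regions. A match is a description of letters and not a bound site.

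The lncRNA promoters split by CpG class. In the 1422 CpG-poor regions GATA was found in 16.1% and RUNX in 18.99%, and in the 253 CpG-rich regions in 3.16% and 4.74%. KLF/SP boxes went the other way, with 11.3% of CpG-poor and 52.2% of CpG-rich regions, as did the CCGGAA form of ETS, with 5.91% and 16.2%, and CRE, with 9.63% and 22.9%. The KLF/SP, CCGGAA, CRE and NRF1 sequences contain a CpG themselves, and the part of base composition in these shares was not tested. AGGAAG, which has no CpG, was found in 35.3% of CpG-poor and 15.8% of CpG-rich regions. The 33 regions with an NRF1 match and the 125 with CCGGAA had median signals of 10.99 and 10.2, against 8.57 and 8.54 without one. The 47 with a TATA match had 7.58 against 8.65. The NRF1 and TATA medians rest on few regions.

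**Figure D4:**
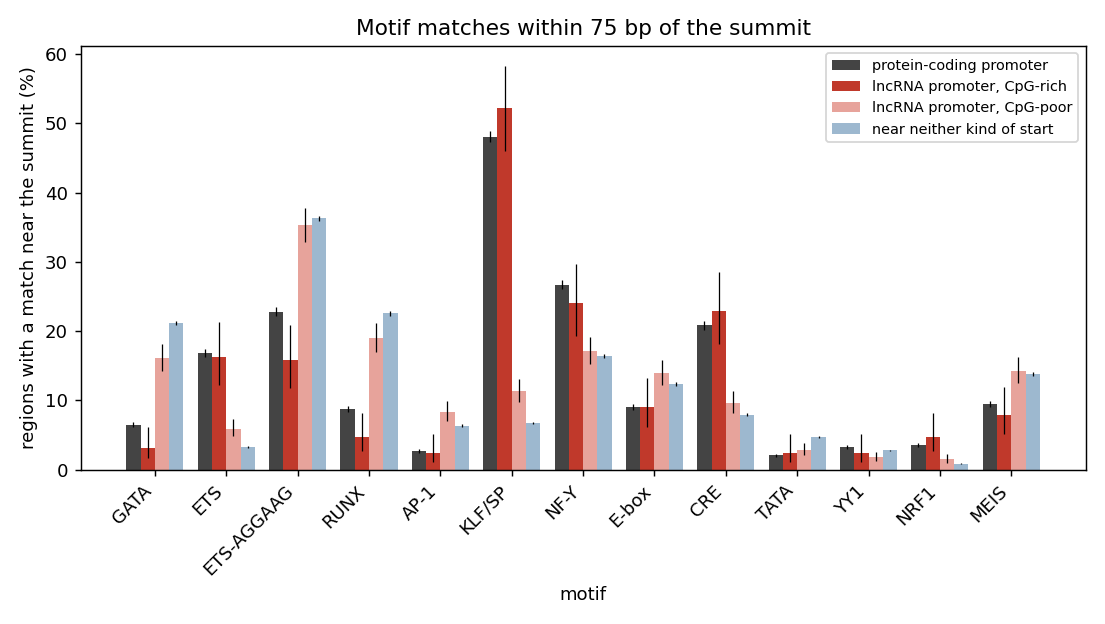
Share of regions (vertical axis, %) with a match to each motif (horizontal axis) within 75 bp of the summit, for protein-coding promoters (black), CpG-rich and CpG-poor lncRNA promoters (dark and light red) and regions near neither kind of start (blue), with Wilson 95% intervals as error bars. With KLF/SP, CpG-rich lncRNA promoters stand at 52.2%, near the black bar at 48.1%. With RUNX, CpG-poor ones stand at 18.99%, nearer to the blue bar (22.5%) than to the black (8.72%). The interval of that share and that of the blue bar do not overlap, and the CpG-rich RUNX share, 4.74%, lies below the black bar. Among CpG-rich protein-coding promoters alone, not drawn, the KLF/SP share was 62.3%.

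The strongest lncRNA promoters were mostly of genes with no known role. Gm13274, an antisense gene in the type I interferon gene cluster, had a signal of 29.6, with 25.2 in replicate 1 and 27.0 in replicate 2, and ranked 11 among all regions. The cluster holds similar gene copies, and how reads from repeated sequence were treated is not given in the sources used here. BC002059 followed with 24.7 (22.1 and 23.96), then Gm12052 with 23.9 (20.3 and 23.4) and AC026385.1 with 23.2 (20.7 and 20.9). The next 8, Gm15818, Mir670hg, Gm12069, Gm48857, Gm15996, 4930553P18Rik, Gm5444 and Gm6712, lay between 21.6 and 22.9, and all 12 were listed by both libraries. Replicate 2 was the higher in each of these 12. In all, 18 lncRNA promoters were among the strongest 1000 regions. Of the 12, Gm13274 alone was CpG-rich, and 8 of the 12 had their summit within 123 bp of the start.

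Width and signal picked different regions. 2410080I02Rik was the widest at 2232 bp and had a signal of 5.61 (5.48 and 5.31), and 5031425E22Rik, 2067 bp wide, had 6.41 (6.05 and 6.80). Gm15663 and Gm6410 were 1973 and 1964 bp wide. Gm16565, with 7 summits and a signal of 8.49, had the most summits.

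Known lncRNA genes were described by lists, chosen with earlier results of these data known. Of the genes of each list that are annotated and have a start away from protein-coding starts, the promoter was open in 10 of 13 small nucleolar RNA hosts, 14 of 21 genes listed as microRNA hosts, 6 of 8 nuclear or widely expressed RNAs, 4 of 5 RNAs of X inactivation, 4 of 10 imprinted RNAs and 11 of 15 immune and blood RNAs. Of the 14 listed hosts, 4 (Mirt1, Mirt2, Lncpint and Pvt1) held no annotated microRNA gene on their strand. In the list of RNAs of other tissues it was open in 2 of 22, Kcnq1ot1 and Platr10. This count was 1 with a window of 0.5 kb or with gene 5′ ends alone, 6 with 2 kb, 4 in the IDR-thresholded list, 7 in the replicated list and 8 in the pseudoreplicated list, and Carmn had a region of signal 16.6 at 1040 bp, outside the window. Hoxa11os and Vax2os of the other-tissue list had a region within 1 kb of a start, with signals of 6.11 and 6.61. Both regions counted as protein-coding promoters, as did those at Tug1 and Hotairm1 of other lists. In the stronger 50% of regions the promoter was open in 4 of 13 small nucleolar RNA hosts, 8 of 21 listed microRNA hosts and 4 of 15 immune and blood RNAs. Over all lncRNA genes the share was 17.7% in the full conservative list and 9.62% in its stronger 50% of regions. Some genes stand on more than 1 list. A start is that of any annotated transcript, so a region can lie inside its gene, away from the 5′ end. This held, among others, for the strongest regions of Airn, Tsix, Ftx, Meg3, Pvt1, Dleu2, Dnm3os, Mir99ahg, Gm14005 and Platr10.

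**Figure D5:**
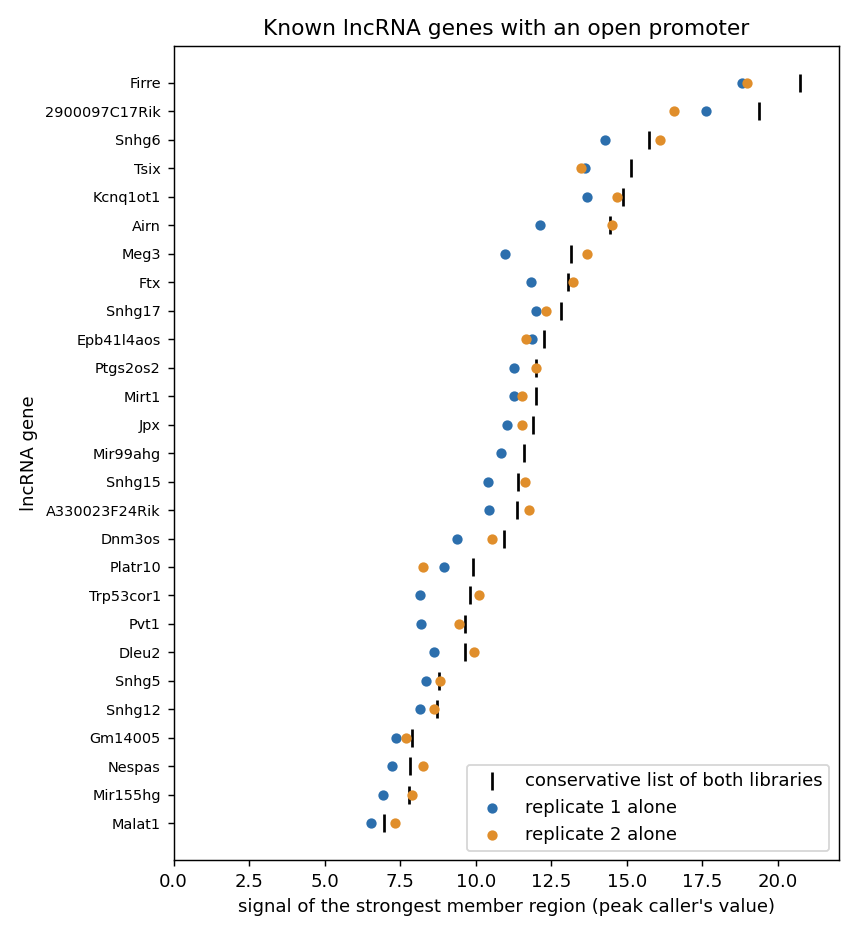
Signal (horizontal axis, peak caller's value) of the strongest promoter region of 27 known lncRNA genes (vertical axis), in the conservative list (black bar), replicate 1 (blue) and replicate 2 (orange). Values run from 20.7 for Firre to 6.96 for Malat1, and Mir99ahg has no orange point because replicate 2 did not list it.

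Among nuclear and widely expressed RNAs, Firre, an X-linked RNA that helps hold chromosomal loci together in the nucleus, had 20.7 (18.8 and 18.97). 2900097C17Rik, the mouse Norad, which binds Pumilio proteins in the cytoplasm, had 19.4 (17.6 and 16.6). Both ranked far above Malat1, the RNA of nuclear speckles, whose regions had 6.96 (6.55 and 7.32) and 5.92 (5.29 and 6.35). The region at Neat1, the scaffold of paraspeckles, had 3.81 (4.13 and 4.05). Its nearest start was that of Frmd8os, so it counts under that gene. Tug1 had a summit 125 bp from a start with a signal of 15.8 (14.3 and 14.6) that lay within 1 kb of Morc2a and therefore counted as a protein-coding promoter.

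In the X-inactivation centre of these male cells, Tsix, the antisense repressor of Xist, had 15.1 (13.6 and 13.5) at a start inside the gene. Ftx and Jpx, both known as activators of Xist, had 13.0 (11.8 and 13.2) and 11.9 (11.02 and 11.5). The Ftx region lay at a start inside the gene. Xist itself had no region in the window: the nearest summit was 1005 bp from a start, just outside, with a signal of 6.59, and neither library listed it alone. Among imprinted RNAs, Kcnq1ot1, which silences its neighbours on the paternal chromosome, had 14.9 (13.7 and 14.7). Airn, which silences Igf2r, had 14.4 (12.1 and 14.5) at an annotated start inside the gene. Its region near the gene's 5′ end, with a summit 8 bp from a start, had 6.56 (5.71 and 6.92). Meg3 had 13.2 (10.96 and 13.7) with its summit 772 bp downstream of a start inside the gene. Nespas, the antisense RNA of the Gnas locus, had 7.82 (7.23 and 8.24). No region was within 1 kb of a start of H19, Rian or Mirg.

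Hosts of small nucleolar RNAs, which guide the modification of ribosomal RNA, had summits from 4 to 313 bp from the start. Snhg6 led with 15.7 (14.3 and 16.1) at 52 bp, followed by Snhg17 with 12.8 (11.998 and 12.3) at 11 bp, Epb41l4aos with 12.3 (11.9 and 11.7) at 45 bp and Snhg15 with 11.4 (10.4 and 11.6) at 26 bp. Snhg5, with the farthest summit at 313 bp, had 8.79 (8.34 and 8.83). Snhg12, Snhg20 and 1110038B12Rik had 8.71, 8.18 and 8.68, and Snhg8 and 2410006H16Rik 7.36 and 7.70. The strongest region of all 10 was listed by both libraries. Snhg1, Snhg3, Snhg9, Gas5 and Zfas1 also had an open start, with signals from 5.20 to 9.25, but it lay within 1 kb of a protein-coding start, such as that of Rps2 beside Snhg9. Snhg1, Gas5 and Snhg14 are the 3 of 13 without a lncRNA promoter region by the rule.

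Genes that hold an annotated microRNA gene on their strand had 57 regions at 42 genes, with a median signal of 8.54. Of these regions 38.6% were CpG-rich and 80.7% were listed by both libraries, against 15.1% and 67.9% of all lncRNA promoters. The strongest was Mir670hg at 21.9 (18.8 and 21.5), followed by A930003A15Rik at 17.6, 9330111N05Rik at 16.96, Gm10505 at 16.2, 2900076A07Rik at 15.5 and AC113104.3 at 14.4. The Mir670hg region was in the CpG-poor class, with 49.5% GC and a CpG ratio of 0.515. It lay at a start inside the gene, downstream of Mir129-2 and Mir670.

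Hosts of some microRNAs known from blood cells follow, of which F630028O10Rik, Gm4258 and 3110039I08Rik were chosen after their values were seen. Their mature microRNAs, from RefSeq on GRCm38.p6, are printed with the seed, bases 2 to 8, in capitals, because the genes described are known for them. Mature sequences were found for 48 of 65 microRNA genes held.
miR-15a-5p, held by Dleu2: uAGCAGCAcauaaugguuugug
miR-16-5p, held by Dleu2: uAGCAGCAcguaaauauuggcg
miR-17-5p, held by Mir17hg: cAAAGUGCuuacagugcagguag
miR-142a-5p, held by Mir142hg: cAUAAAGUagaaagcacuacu
miR-155-5p, held by Mir155hg: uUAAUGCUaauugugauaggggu
miR-223-3p, held by F630028O10Rik: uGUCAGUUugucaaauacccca
miR-15a and miR-16 share a seed, and the other 4 differ from it and from each other. Dleu2, their host, is deleted in human chronic lymphocytic leukaemia, and had 3 regions, at 9.63 (8.61 and 9.93), 7.07 and 5.57. The first lay at a start inside the gene and the others near its 5′ end. F630028O10Rik, host of the granulocyte microRNA miR-223, had 8.43 (8.06 and 8.31). Mir155hg, host of a microRNA of activated immune cells, had 7.80 (6.93 and 7.90) and 5.87 (5.54 and 5.34). Mir142hg, whose microRNA is used across blood cells, had 3.9997 (3.72 and 3.98), 56 bp from its start. Mir17hg, host of the growth-promoting miR-17-92 cluster, had 5.51 (5.16 and 5.65) at 618 bp upstream, and a summit 13 bp from the start with 3.07 that neither library listed alone. Mir99ahg, studied in human megakaryoblastic leukaemia as host of let-7c and miR-125b-2, had 3 regions. Those at 11.6 (10.8 in replicate 1) and 9.32 (8.96 and 8.42) lay at starts inside the gene. For the stronger, replicate 2 gave 8.82 in its pseudoreplicated list, and its thresholded list lacked it. The region near the gene's 5′ end had 8.41, and neither library's thresholded list held it. Gm4258, which holds Mir181a-1 and Mir181b-1, had 11.2 (9.82 and 12.1). 3110039I08Rik, which holds Mir125b-1, had 11.4 (9.22 and 11.01) at a start inside the gene. These hosts thus lay on both sides of the 8.54 median of regions at microRNA-holding genes.

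In the immune and blood list, Ptgs2os2, known as lincRNA-Cox2 and a regulator of immune genes in macrophages, had 11.99 (11.2 and 11.99). Trp53cor1, known as lincRNA-p21 and induced by p53, had 9.81 (8.17 and 10.1). Pvt1, the neighbour of Myc, had 3 regions, of which those at 9.65 (8.18 and 9.44) and 6.65 lay at starts inside the gene. The one with its summit 6 bp from the gene's 5′ end had 8.63 and was not listed by replicate 1. Gm14005, the annotation's name for Morrbid, which controls the lifespan of short-lived myeloid cells, had 7.88 (7.35 and 7.69), and Lockd, beside Cdkn1b, had 6.09 (5.74 and 6.55).

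For 35 lncRNA promoters the nearest protein-coding start belonged to a listed blood regulator gene, 21 genes in all. Their median signal was 6.72, below the 8.60 of all lncRNA promoters, 20% were CpG-rich and 23 (65.7%) were listed by both libraries. Over all lncRNA promoters these shares were 15.1% and 67.9%, and over all regions 14.0% and 63.9%. Gm43635, 101.9 kb from Ccnd2, which encodes the cell-cycle protein cyclin D2, had the highest signal at 14.2 (12.4 and 14.5). Gm26692, 36.3 kb from the repressor gene Gfi1, had 14.0 (13.0 and 12.1). Gm32250 and A330023F24Rik, 56.5 and 37.5 kb from the progenitor marker gene Cd34, had 13.4 (12.7 and 12.5) and 11.3 (10.4 and 11.8), and A330023F24Rik also holds Mir29b-2 and Mir29c. Gm33619, 25.9 kb from Myb, which keeps progenitors dividing, had 11.8 (10.9 and 11.4). 2310067P03Rik, 439.1 kb from Mef2c, had 10.9, and Gm12708, 141.0 kb from Jun, had 10.3. Trp53cor1, 11.9 kb from Cdkn1a, had 9.81. Position says nothing of which gene a region acts on.

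A few strong regions were missing from the thresholded list of a library although its more inclusive pseudoreplicated list held them. Gm38563 had 16.6 and was not listed by replicate 2, which gave 13.7 in its pseudoreplicated list against 14.5 in replicate 1. Gm6634 had 15.99, with 15.8 in replicate 1 and 12.5 in the pseudoreplicated list of replicate 2. Wbscr25 had 13.2 and was not listed by replicate 1, whose pseudoreplicated list gave 10.5 against 13.0 in replicate 2. Both libraries thus had signal at these regions. Among regions listed by both, Gm13657 had the largest excess in replicate 2 (4.47 and 6.99, log2 ratio 0.65), then 4930481A15Rik (0.61) and Gm44731 (0.57). Gm44507 had the largest excess in replicate 1 (10.6 and 7.82, log2 ratio -0.44), then 8430423G03Rik (-0.42) and 2310005A03Rik (-0.39).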

How the data were processed

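The authors deposited peak lists on mm10, per the labels, in narrowPeak form with 1 line per summit. Used were the signal column, on the scale of the authors' peak caller, and the summit offset, another number in the deposited lists that gives the summit's distance from the peak start. Which aligner and caller were run, and whether reads were shifted, is not given in the sources used here, and these steps could move summits. The thresholds were on the irreproducible discovery rate (IDR). Per-library and combined lists were used, the ranked lists were not, and depth is unknown.

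Summits of the same interval were joined into 1 region with the strongest summit's signal. Starts were those of protein-coding transcripts (54361) and of all transcripts of lncRNA genes (14285) in GENCODE M21. Named genes were the strongest, widest and most many-summited regions, the strongest of each list, those missing from a library, the extremes of the ratio between libraries and those nearest the limits of the rule. Up to 6 open and 4 other genes were named per list. Some genes that the rule or the marker lists hold are not reported here. The members, lists and this rule were chosen with earlier results of these data known. Alternatives were other lists, windows, start definitions and CpG limits. On simulated regions of known class the procedure recovered 3000 of 3000 region classes. Tools were python 3.11.15, pandas 2.3.3, numpy 2.4.6 and matplotlib 3.10.9.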

Additional observations from a re-analysis of the deposited data

How the results depend on the processing

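No paired analysis was possible because there is 1 group only. Values below are alternatives to 1675 regions, 67.9% listed by both libraries, a median signal of 8.60, 15.1% CpG-rich, 17.7% of lncRNA genes open, a median summit distance of 267 bp, 27.2% inside protein-coding genes and a median width of 501 bp, in that order where named. None of the alternatives that moved a value had its cause tested, beyond what its construction fixes. With either library left out, the median signal was 8.61 to 9.02, open genes 14.1% to 14.6%, distance 236 to 238 bp and width 475 to 492 bp. The replicated list gave 2680 regions, 42.5%, 6.26, 12.8%, 25.6%, 306.5 bp and 390.5 bp wide, and the pseudoreplicated list of both libraries 2635, 43.2%, 6.35, 12.8%, 25.1%, 312 bp and 396 bp. The series-level IDR-thresholded list moved the distance to 256.5 bp. The stronger 50% of regions gave 795, 90.9%, 11.7, 9.62% of genes, 195 bp, 22.8% and 600 bp. A window of 0.5 kb gave 71.0%, 8.95, 19.7%, 13.2%, 115 bp and 544 bp, and 2 kb gave 2547 regions, 8.24, 11.8%, 23.8%, 654 bp, 29.9% and 467 bp. Keeping 2 kb from protein-coding starts gave 8.90, 252.5 bp and 24.3%, and 5 kb gave 9.07, 254 bp, 22.2% and 516 bp. Gene 5′ ends alone gave 20.1% CpG-rich, 300 bp, 36.3% and 520.5 bp. Each gene type alone gave 992 lincRNA, 479 antisense and 229 processed_transcript regions. The share listed by both libraries was 64.5% at 50% of both regions and 97.3% in the pseudoreplicated list of each library. The CpG-rich share was 7.76% at a ratio of 0.75 and GC of 55%, and 17.4% in windows of 150 bp each side. Among alternatives added after seeing the data, every transcript start of protein-coding genes gave 265 bp and 24.97%, and leaving out regions with at least 50% repeats gave 256.5 bp and a width of 507.5 bp. The order of lncRNA promoters and regions near neither kind of start depended on the setting: lncRNA promoters had the higher median signal in the replicated list (6.26 against 5.94), the pseudoreplicated list (6.35 against 6.15), with a window of 0.5 kb (8.95 against 8.74) and at 2 kb from protein-coding starts (8.90 against 8.88), and the medians were equal at 5 kb (9.07). Over all regions of a setting, protein-coding promoters had the higher median than lncRNA promoters except at 5 kb (8.47 against 9.07). There, regions up to 5 kb from a protein-coding start count as theirs. Among CpG-poor regions of the main setting, lncRNA promoters had the higher median (8.57 against 7.97). Library depth is unknown, so weak promoters missing from the lists are not shown to be closed.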
